A study of Mus musculus with 4 samples.

Results

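The genes described here handle iron in mouse spermatogonia. They are the 10 genes Tfrc, Steap3 and Slc11a2 (uptake), Fth1, Ftl1 and Ncoa4 (storage and release from storage), Slc40a1 (export), Hmox1 (release of iron from heme) and Ireb2 and Aco1 (sensing). They were chosen by gene symbol, and all 10 were found among the 55421 genes of the count table. RNA was sequenced from primary cultures of CD1 background spermatogonia, called spermatogonial stem cell (SSC) cultures, with 2 libraries in each of 2 groups. Veh cultures were kept in complete medium throughout. NRRA cultures received a nutrient restriction medium, made mostly of the balanced salt solution EBSS, together with retinoic acid (RA). The labels name N2, a supplement that contains transferrin, and the growth factors bFGF and GDNF for these cultures. The nutrient restriction medium holds only a small part of complete medium, so that these supplements are diluted in NRRA. The part of this dilution in the values below was not tested. Per the study's methods, the cultures were started from testes of neonatal pups after adherent somatic cells had been discarded, and grew on irradiated mouse embryonic fibroblast (MEF) feeder cells from CF1 mice. All 4 libraries can therefore hold RNA of germ cells and of feeder cells. NR alone and RA alone were not analysed here, so that what is given below belongs to the combined treatment. The study's sequencing replicates are, as a general statement, independent and biological, and the labels of these libraries do not name their cultures or mice. The edgeR p-values and intervals below rest on the spread between these libraries. With 2 libraries per group, the spread of a gene is not used alone but is moderated with that of all genes tested. Very small p-values and narrow intervals therefore rest partly on the spread of other genes. The common variation between libraries of a group was 2.61%. Whether this equals the spread between independent cultures was not tested.

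Cells take up iron mainly as transferrin, which binds the transferrin receptor (Tfrc) and is carried into endosomes. There Steap3 reduces the iron and Slc11a2 (DMT1) moves it into the cytosol. Iron that is not used is stored in ferritin, a shell of heavy chains (Fth1), which oxidise iron, and light chains (Ftl1). Ncoa4 carries ferritin to the lysosome, where the iron is set free, and ferroportin (Slc40a1) is the known exporter of iron from mammalian cells. Hmox1, the inducible heme oxygenase, breaks down heme and releases its iron. The iron regulatory proteins Aco1 (IRP1) and Ireb2 (IRP2) bind hairpins called iron-responsive elements (IREs) when iron is low. Binding to elements after the stop codon protects the Tfrc mRNA from decay, and binding to an element in the 5′ leader blocks translation of Fth1, Ftl1 and Slc40a1 mRNA. Dividing germ cells need iron for DNA synthesis and for mitochondrial enzymes.

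The elements themselves show which members belong to which arm of this control. They were read from GENCODE transcripts (GRCm38, the mm10 build) with a search for a bulged C, 5 paired bases, the loop CAGUGN in which the last base is not G, and 5 bases that pair with the first 5, G-U pairs allowed, on the sense strand. They are printed in RNA letters, 5′ to 3′, with 5 bases on each side, and the capitals mark the loop. In Tfrc the search matched 4 elements, all after the stop codon, on the plus strand at chr16:32631220-32631246, chr16:32631599-32631625, chr16:32631664-32631690 and chr16:32631711-32631737. They begin 889, 1268, 1333 and 1380 bases after the stop codon, and 1 of the 3 coding Tfrc transcripts holds them.
Tfrc element 1: auuaucggaagCAGUGCcuuccauaau
Tfrc element 2: auuaucgggagCAGUGUcuuccauaau
Tfrc element 3: uauaucggagaCAGUGAucuccauaug
Tfrc element 4: auuaucgggaaCAGUGUuucccauaau
The storage and export genes carried 1 element each, in the 5′ leader.
Fth1: uccugcuucaaCAGUGCuugaacggaa
Ftl1: ucuugcuucaaCAGUGUuugaacggaa
Slc40a1: aacuucagcuaCAGUGUuagcuaaguu
The Fth1 element lies at chr19:9982733-9982759 (plus strand, 4 of 5 coding transcripts), that of Ftl1 at chr7:45459780-45459806 (minus strand, 2 of 2) and that of Slc40a1 at chr1:45925466-45925492 (minus strand, 1 of 4). Slc11a2 is known to have a variant with an element after the stop codon, and no stretch with these letters and pairs was found in its annotated transcripts. Among 21951 protein-coding genes, 0.105% matched in the 5′ leader and 0.501% after the stop codon. The counts below are sums over all transcripts of a gene and do not tell apart transcripts with and without an element.

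The total count ranged from 28022265 to 31604769 reads per library, and the libraries of a group were close, with r of log2 CPM of 0.993 in Veh and 0.994 in NRRA across genes, which are not independent replicates. CPM are counts per 1000000 reads of the TMM-scaled library size, where TMM is a scaling that centres most genes on no change. Stra8, which RA induces directly, stood at 9.62 and 10.1 CPM in Veh and at 1863.8 and 1852.7 CPM in NRRA. The test covered 20232 genes and called 5654 higher and 5752 lower at a Benjamini-Hochberg adjusted p under 0.05 (edgeR quasi-likelihood test over all genes). In other words, 27.9% of them were called higher and 28.4% lower. Without TMM scaling the share of calls that were higher moved from 49.6% to 60.3%, with a median shift of 0.09 on the log2 scale. Germ cell markers were present in every library, with 7403 to 8822 counts of Ddx4 and 16926 to 24391 of Dazl. Of the 7 germ cell markers, 3 were higher, 3 lower and 1 not called, from -0.45 for Tdrd1 to 0.84 for Sall4 on the log2 scale.

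The iron genes moved in different directions. All 10 passed the filter on low counts, 3 were called higher (Tfrc, Ncoa4, Ireb2), 5 lower (Hmox1, Fth1, Steap3, Ftl1, Aco1) and 2 were not called (Slc11a2, Slc40a1). The changes ran from a 3.58-fold fall of Hmox1 to a 1.61-fold rise of Tfrc. The median log2 fold change of the 10 was -0.11 (0.00 over all genes tested), and their median absolute log2 fold change was 0.37 (0.33 over all genes). For 9 of the 10 the CPM of the groups did not overlap, against 76.7% of all genes tested. Hmox1 alone was both called and at least 2-fold changed, or 1 of 10, against 13.3% of all genes. Over 10 genes such shares are coarse, nothing particular to the iron genes is read from them, and what follows is about which genes moved and by how much.

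**Figure D1:**
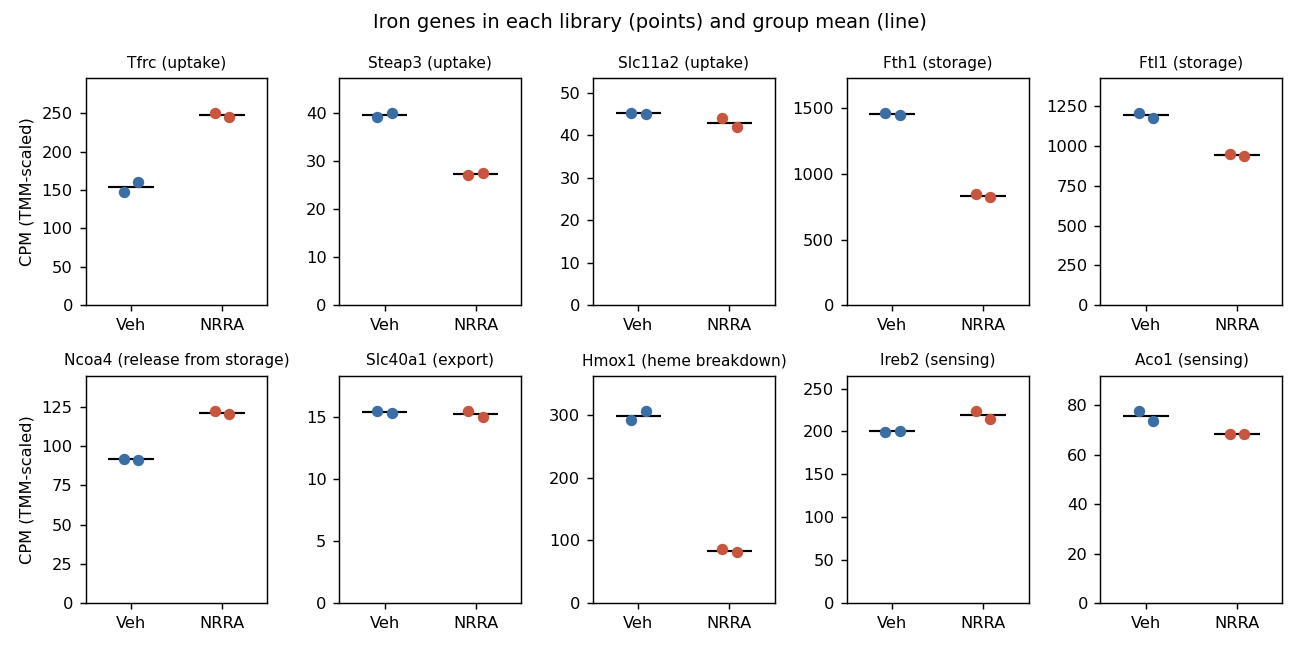
CPM of the 10 iron genes on linear axes that start at 0. Points are the 2 Veh (blue) and 2 NRRA (red) libraries and lines are group means. Tfrc and Ncoa4 are higher in both NRRA libraries, Fth1, Ftl1, Steap3 and Hmox1 are lower in both, and the Slc40a1 points of the groups overlap.

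Markers of other cell types were measured beside the iron genes. The feeder cells are a known source of RNA in these cultures. Of 17 fibroblast markers, 14 were called lower and 2 higher in NRRA (28.4% and 27.9% over all genes), with a median log2 fold change of -0.41 (0.00 over all genes), and together they took 1.04% and 1.03% of the counts in Veh and 0.843% and 0.824% in NRRA. They ranged from -1.52 for Timp1 to 0.98 for Pdgfra. Col1a1 was abundant and little changed, at 1259.9 and 1206.8 CPM in Veh and 1184.4 and 1121.5 CPM in NRRA (log2 fold change -0.10, edgeR adjusted p = 0.00168), whereas S100a4 was counted only 26 and 29 times (Veh) and 19 and 11 times (NRRA). In bulk RNA, fewer cells of a type and less RNA per cell cannot be told apart, and the part of the feeder cells in the values below was not tested. Macrophages and red cells handle much iron in the body. Among macrophage markers, Ptprc had at most 12 counts in a library and C1qa at most 8, but Csf1r had 564 to 616, Lyz2 308 to 403 and Cd68 149 to 279. The summed macrophage markers were 49.6 and 54.9 CPM in Veh and 44.0 and 42.5 CPM in NRRA, and of the 8 macrophage genes tested 3 were lower and 5 not called. Of the 4 globin genes in the table, 3 were at 0 in all libraries and Hba-a1 had at most 1 count, while Klf1, an erythroid factor, rose from 5 and 18 counts (Veh) to 44 and 53 (NRRA) and Gata1, also an erythroid factor, fell from 14 and 24 to 7 and 8. Of the Sertoli cell markers, Sox9 fell from 27.1 and 29.4 CPM to 9.33 and 9.43 CPM (log2 fold change -1.59, edgeR adjusted p = 1.33e-14), Wt1 had 178 to 233 counts and was not called, Amh had at most 3 counts and Fshr was at 0. The part of these cell types in the values below was not tested either.

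Uptake genes did not move as a group. Tfrc, the transferrin receptor (ENSMUSG00000022797, GRCm38 chr16:32608920-32632794, plus strand), was at 147.7 and 160.7 CPM in Veh and at 250.2 and 245.5 CPM in NRRA. Both NRRA libraries lay above both Veh libraries by far more than the libraries of a group differed. The means were 154.2 ± 9.22 and 247.8 ± 3.31 CPM (SD, n = 2 per group), a 1.61-fold rise, or 0.68 on the log2 scale (SE 0.0342, 95% interval 0.61 to 0.75, edgeR adjusted p = 2.82e-15). Of all genes tested, 12% had a higher log2 fold change.

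Steap3, the endosomal reductase that prepares iron for Slc11a2 (ENSMUSG00000026389, chr1:120190757-120272705, minus strand), went the other way. It was at 39.2 and 40.0 CPM in Veh and at 27.0 and 27.5 CPM in NRRA. It was thus 1.45-fold lower, a log2 fold change of -0.54 (SE 0.0616, 95% interval -0.67 to -0.41, edgeR adjusted p = 2.84e-08). Slc11a2, the endosomal iron transporter (ENSMUSG00000023030, chr15:100387898-100425072, minus strand), was at 45.2 and 45 CPM in Veh and at 44.1 and 41.8 CPM in NRRA. Its groups did not overlap, but its log2 fold change of -0.07 was not past the threshold (95% interval -0.18 to 0.05, edgeR adjusted p = 0.309). Gm5475 lies opposite to 6.33% of its exonic bases. Within each library the count ratio of Tfrc to Steap3 was 3.77 and 4.02 in Veh and 9.28 and 8.93 in NRRA, a 2.34-fold difference between the receptor and the reductase.

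Storage genes fell, more in the heavy than in the light chain. Fth1, the ferritin heavy chain (ENSMUSG00000024661, chr19:9980598-9985098, plus strand), was at 1463.5 and 1445.1 CPM in Veh and at 844.9 and 826.0 CPM in NRRA. It is among the most abundant mRNAs of these cultures, and 99.9% of the genes tested had a lower mean level in CPM. The means were 1454.3 ± 13.1 and 835.5 ± 13.4 CPM (SD, n = 2 per group), a 1.74-fold fall with a log2 fold change of -0.80 (SE 0.0215, 95% interval -0.84 to -0.76, edgeR adjusted p = 4.74e-21). Of all genes tested, 9.96% had a lower log2 fold change.

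Ftl1, the ferritin light chain (ENSMUSG00000050708, chr7:45457944-45459884, minus strand), was at 1207.7 and 1178.9 CPM in Veh and at 948.7 and 939.4 CPM in NRRA. Its 1.26-fold fall was smaller than that of Fth1, with a log2 fold change of -0.34 (SE 0.0215, 95% interval -0.38 to -0.29, edgeR adjusted p = 4.24e-13), and the intervals of both chains do not overlap. The count ratio of Fth1 to Ftl1 was 1.21 and 1.23 in Veh and 0.891 and 0.879 in NRRA, a log2 difference of -0.46. The level of Ftl1 is uncertain. Its longest transcript is near-identical to sequence in 13 other genes, and Gm10252 lies opposite to 26.5% of its exonic bases. The Gm10252 counts were 19382 and 20898 (Veh) and 18485 and 17060 (NRRA), a nearly fixed 0.592 to 0.603 of the Ftl1 count in all libraries. With these copies added to Ftl1, the log2 fold change was -0.33. Gm10252 holds most of the added counts at this nearly fixed ratio, so the sum could hardly differ from Ftl1 alone.

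Ncoa4, the receptor that takes ferritin to the lysosome (ENSMUSG00000056234, chr14:32159865-32179855, plus strand), rose while ferritin mRNA fell. Its libraries were at 92.1 and 91.3 CPM in Veh and at 122.6 and 120.3 CPM in NRRA, with no overlap. This is a 1.33-fold rise, a log2 fold change of 0.41 (SE 0.037, 95% interval 0.33 to 0.48, edgeR adjusted p = 4.85e-10). A near-identical stretch of Gm6768 covers 46.2% of its longest transcript, where Gm6768 itself was counted 15 and 21 times (Veh) and 27 and 23 times (NRRA) beside 2497 to 3993 of Ncoa4. Per Fth1 count, Ncoa4 went from 0.0629 and 0.0632 in Veh to 0.145 and 0.146 in NRRA, a 2.31-fold difference.

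For the exporter Slc40a1, ferroportin (ENSMUSG00000025993, chr1:45908068-45926523, minus strand), no difference was detectable. It was at 15.5 and 15.3 CPM in Veh and at 15.5 and 15.0 CPM in NRRA, with 421 to 505 counts in a library. The groups overlapped, and the log2 fold change was -0.01 (SE 0.0881, 95% interval -0.19 to 0.17, edgeR adjusted p = 0.937). Its sign turned with the scaling of the libraries.

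Hmox1, heme oxygenase (ENSMUSG00000005413, chr8:75093621-75100589, plus strand), had the largest change of the 10. It stood at 292.1 and 307.5 CPM in Veh and at 86.0 and 81.5 CPM in NRRA. Means of 299.8 ± 10.9 and 83.8 ± 3.13 CPM (SD, n = 2 per group) make a 3.58-fold fall, a log2 fold change of -1.84 (SE 0.035, 95% interval -1.91 to -1.77, edgeR adjusted p = 2.97e-24). A lower log2 fold change was found for 2.95% of all genes tested. Hmox2, the constitutive heme oxygenase, was at 110.9 and 117.1 CPM in Veh and at 121.4 and 116.4 CPM in NRRA and was not called (log2 fold change 0.06, edgeR adjusted p = 0.178), although it was called higher with library size only (0.15) and without Veh replicate 2 (0.10).

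The sensors moved least among the called genes, and in opposite directions. Ireb2, IRP2 (ENSMUSG00000032293, chr9:54863789-54912530, plus strand), was at 199.1 and 200.7 CPM in Veh and at 224.1 and 214.1 CPM in NRRA, a 1.1-fold rise (log2 fold change 0.13, SE 0.0306, edgeR adjusted p = 0.0006). Aco1, IRP1, which is also a cytosolic aconitase (ENSMUSG00000028405, chr4:40143081-40198338, plus strand), was at 77.8 and 73.6 CPM in Veh and at 68.5 and 68.3 CPM in NRRA, a 1.11-fold fall (log2 fold change -0.14, SE 0.0446, edgeR adjusted p = 0.00705). The Aco1 call is not firm. It was lost with library size only (log2 fold change -0.06, edgeR adjusted p = 0.301) and without Veh replicate 1 (-0.11, edgeR adjusted p = 0.0798). Counts of Ireb2 per Aco1 count were 2.56 and 2.73 in Veh and 3.27 and 3.14 in NRRA.

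**Figure D2:**
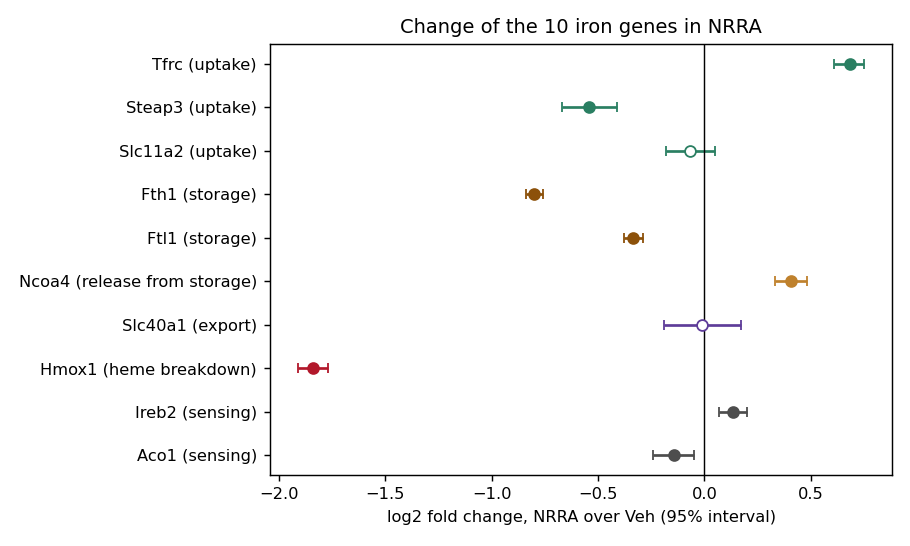
Log2 fold change of each iron gene, NRRA over Veh, with its 95% interval from the edgeR fit. Filled points are called at an adjusted p under 0.05 and open points (Slc11a2, Slc40a1) are not. Hmox1 lies farthest to the left at -1.84 and Tfrc farthest to the right at 0.68.

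Levels of different genes can be compared per kilobase (kb) of exon. On that scale Ftl1 led in both groups, at 890.5 CPM per kb in Veh and 704.5 in NRRA, and Fth1 followed at 419.2 and 240.8 CPM per kb. Hmox1 was the third in both groups, at 171.2 and 47.8 CPM per kb. Tfrc came next with 24.9 and 40.1 CPM per kb, so that the gap between Hmox1 and Tfrc levels narrowed. Ireb2 (21.1 and 23.1 CPM per kb) and Aco1 (16.8 and 15.2) stood above Ncoa4 (9.79 and 13.0). Slc11a2 at 7.09 and 6.76 CPM per kb and Steap3 at 6.93 and 4.76 were close in Veh and apart in NRRA. Slc40a1 had the lowest level, 1.71 CPM per kb in Veh and 1.70 in NRRA. The order was the same in both groups. Exon length counts every annotated exon of a gene, so that genes with long exons used by few transcripts are set too low.

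The contrast of uptake with storage and export can be read within a library, where the scaling of library sizes has no part. The count ratio of Tfrc to Fth1 was 0.101 and 0.111 in Veh and 0.296 and 0.297 in NRRA. The log2 difference was 1.49, and between 1.41 and 1.56 when each NRRA library was set against each Veh library, or 2.8-fold in favour of the receptor. It was 1.46 with the annotated Fth1 copies added. These are relatives with few counts beside Fth1, and no near-identical gene was found for Fth1, so this sum could change little. Tfrc per Ftl1 count was 0.122 and 0.136 in Veh and 0.264 and 0.261 in NRRA, a 2.03-fold difference (2.02-fold with the Ftl1 copies, mostly Gm10252, added). Against the exporter, Tfrc per Slc40a1 count was 9.52 and 10.5 in Veh and 16.1 and 16.3 in NRRA, a 1.62-fold difference. The other uptake genes did not follow Tfrc in every ratio. Steap3 per Fth1 count went from 0.0268 and 0.0277 in Veh to 0.0319 and 0.0333 in NRRA, but Steap3 per Ftl1 count went from 0.0324 and 0.034 to 0.0284 and 0.0293, and per Slc40a1 count from 2.52 and 2.62 to 1.74 and 1.83. Slc11a2 was higher in NRRA relative to both ferritin chains, with log2 differences of 0.73 (Fth1) and 0.27 (Ftl1), and was at 2.91 and 2.95 per Slc40a1 count in Veh and 2.85 and 2.78 in NRRA. Raw count ratios are not corrected for gene length and are compared only between libraries. For every ratio given here the groups did not overlap, and the two-sided exact permutation p was 0.333, the smallest that 2 against 2 libraries can give.

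**Figure D3:**
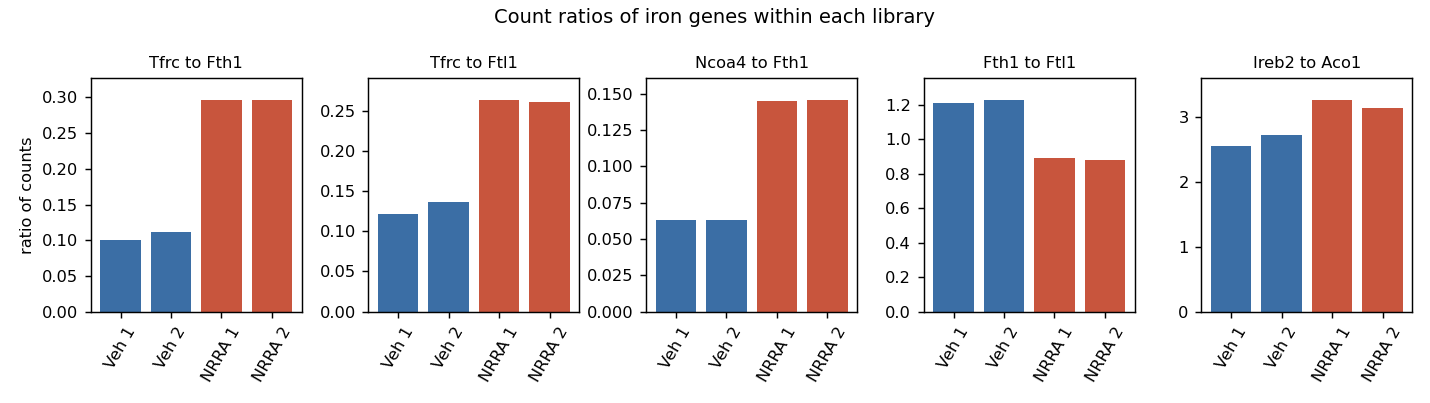
Ratio of raw counts of 2 iron genes within each library (bars from 0, blue Veh, red NRRA, 1 bar per library). Ratios of Tfrc and Ncoa4 to ferritin genes and of Ireb2 to Aco1 are higher in both NRRA libraries, and that of Fth1 to Ftl1 is lower in both.

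The mRNAs known to hold an IRE were also listed by the place of the element. In the list with an element after the stop codon, Tfrc rose, Slc11a2 was not called and Cdc14a, a phosphatase gene, rose from 3.36 and 3.50 CPM in Veh to 11.4 and 11.7 CPM in NRRA (log2 fold change 1.75, edgeR adjusted p = 1.42e-11). Among mRNAs with an element in the leader, Fth1, Ftl1 and Epas1, a hypoxia-inducible factor (log2 fold change -0.79, edgeR adjusted p = 1.2e-13), fell, and Slc40a1 and Alas2, the heme synthesis enzyme of red cells, were not called. This list is not reported in full, so no count or median is given for it. Alas2 had between 19 and 30 counts in a library. By the search used above Alas2 (chrX:150547459-150547485, plus strand) holds an element in the leader, whereas no stretch with these letters and pairs was found in Cdc14a or Epas1. The 2 lists are short and share members with the 10 genes, and no difference between them was tested. The regulation of ferritin and ferroportin by these elements acts on translation, which was not measured.

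Other genes of transferrin-bound uptake went both ways. Of 12 genes in the list, 5 were higher, 5 lower and 2 not called, with a median log2 fold change of -0.14. Over all genes tested, 27.9% were higher and 28.4% lower (median 0.00), and the counts in the lists that follow stand beside those shares. No list was tested as a set. Trf, transferrin itself, fell most, from 41.8 and 42.0 CPM in Veh to 5.31 and 4.55 CPM in NRRA, or -3.08 on the log2 scale (SE 0.0893, edgeR adjusted p = 2.36e-20). The highest value was that of Exoc6, a subunit of the exocyst that serves transferrin recycling, which rose from 20.4 and 20.3 CPM to 34.9 and 35.5 CPM (log2 fold change 0.79, edgeR adjusted p = 1.26e-10). The list of other iron and heme importers had 1 gene higher, 4 lower and 3 not called of 8, with a median of -0.34, and 2 were higher with library size only or without NRRA replicate 1. Slc48a1, which moves heme out of endosomes and lysosomes, fell from 143.6 and 142.9 CPM to 62.6 and 60 CPM (log2 fold change -1.22, edgeR adjusted p = 2.09e-19). Slc22a17, a receptor for lipocalin-bound iron, rose from 27.9 and 25.6 CPM to 39.9 and 39.8 CPM (log2 fold change 0.58, edgeR adjusted p = 1.71e-08).

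In the storage list, all 6 genes tested were called, 3 higher and 3 lower, an even split as over all genes, of which 56.4% were called. Fth1 was its lowest and Ncoa4 its highest gene, and the remaining members lay between them. Ftmt, mitochondrial ferritin, was at 0 in every library. In the export list, 3 of 6 genes tested were higher, 1 was lower and 2 were not called, with a median log2 fold change of 0.13. Without NRRA replicate 1 the number higher was 1. Flvcr2, a relative of the heme exporter Flvcr1, rose from 2.69 and 2.49 CPM to 5.53 and 5.38 CPM (log2 fold change 1.08, edgeR adjusted p = 5.59e-06). Heph, a ferroxidase that works with ferroportin, fell from 6.38 and 5.55 CPM to 4.57 and 3.42 CPM (log2 fold change -0.57, edgeR adjusted p = 0.00424), and this call was lost without NRRA replicate 2 (-0.38, edgeR adjusted p = 0.0863). Prom2, which aids the release of ferritin in vesicles, was called higher from 0 and 4 counts in Veh and 22 and 12 counts in NRRA, and the call was lost without Veh replicate 1 or NRRA replicate 1 (edgeR adjusted p = 0.0572 and 0.0558). Hamp, the gene of the hormone hepcidin that removes ferroportin from the membrane, had at most 3 counts in a library.

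Of 10 genes tested in the sensing list, 4 were higher, 4 lower and 2 not called, with a median log2 fold change of 0.07. Fbxl5, the ubiquitin ligase subunit that marks Ireb2 protein for removal when iron is high, was at 145.6 and 146.3 CPM in Veh and at 143.5 and 149.6 CPM in NRRA and was not called (log2 fold change 0.01, edgeR adjusted p = 0.913), except as higher with library size only (0.10). Hfe, a partner of the transferrin receptors, fell from 2.36 and 2.55 CPM to 1.23 and 1.03 CPM (log2 fold change -1.12, edgeR adjusted p = 0.000631). Tmprss6, a protease that lowers hepcidin in the liver, rose from 4 and 2 counts in Veh to 80 and 94 counts in NRRA (edgeR adjusted p = 5.36e-10). In the heme breakdown list, Hmox1 and Blvra, a biliverdin reductase, fell and 2 of 5 genes rose. The Blvra call (log2 fold change -0.32, edgeR adjusted p = 0.0402) was weak, and the number lower was 1 with library size only, upper-quartile factors or DESeq2 and without Veh replicate 1 or NRRA replicate 1. Blvrb, a biliverdin and flavin reductase, rose from 14.0 and 14.7 CPM to 33.5 and 34.7 CPM (log2 fold change 1.25, edgeR adjusted p = 9.59e-14), opposite to Hmox1.

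Hmox1, Fth1 and Ftl1 are also known targets of the oxidative stress factor NRF2, and were listed with other targets and regulators of that factor. Of 14 genes, 11 were lower, 2 higher and 1 not called, beside 28.4% lower and 27.9% higher over all genes, with a median log2 fold change of -0.46 (0.00 over all genes). The list was not tested as a set, and its lower genes include Bach1, a repressor of these targets (-0.84). Without the 3 iron genes, 8 of 11 were lower and 2 higher (median -0.43). Slc7a11, the cystine transporter, fell from 42.0 and 41.7 CPM to 9.18 and 9.87 CPM (log2 fold change -2.14, edgeR adjusted p = 2.38e-18). Nqo1, a quinone reductase, fell from 52.0 and 50.2 CPM to 16.9 and 18.8 CPM (log2 fold change -1.52, edgeR adjusted p = 1.62e-16). Gsr, glutathione reductase, rose from 177.1 and 177.6 CPM to 293.1 and 299.1 CPM (log2 fold change 0.74, edgeR adjusted p = 1.24e-17). The fibroblast markers fell in the same libraries (median -0.41), and their part in these values was not tested.

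**Figure D4:**
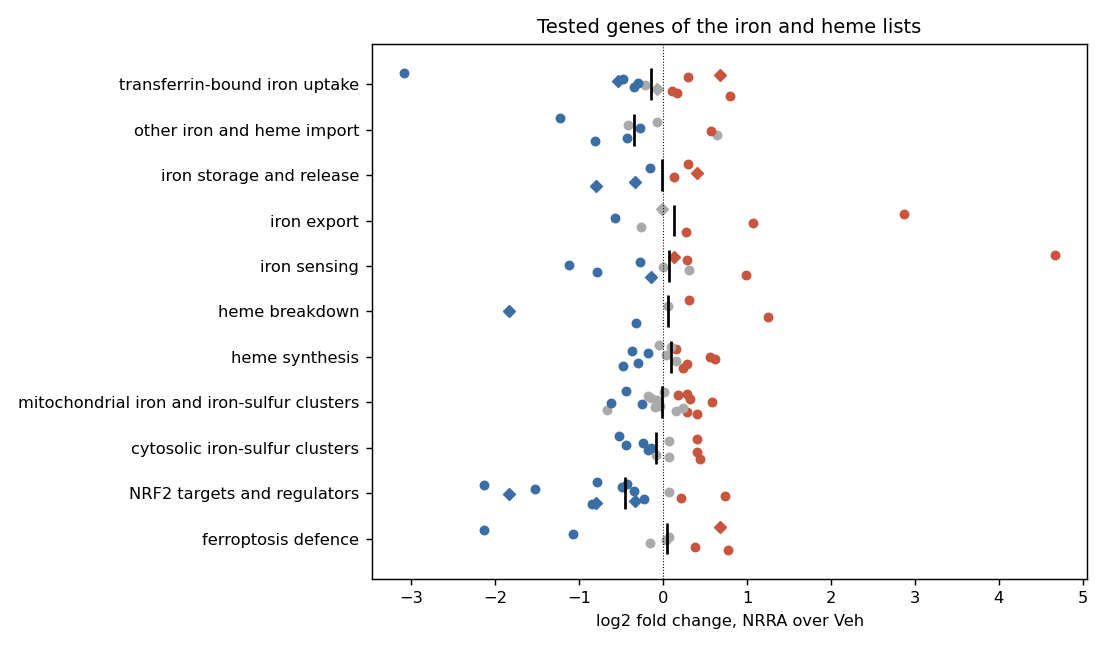
Log2 fold change, NRRA over Veh, of every tested gene in 11 iron and heme lists. Red is called higher, blue called lower and grey not called, diamonds are the 10 iron genes and black bars are list medians. Every list has genes on both sides of 0, and the list of NRF2 targets and regulators has 11 of 14 genes lower and 2 higher. The 2 points farthest to the right are Tmprss6 (4 and 2 counts in Veh) and Prom2 (0 and 4 counts in Veh).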

How the data were processed

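Poly(A) RNA-seq of 2 Veh and 2 NRRA libraries was analysed. The authors deposited raw counts per gene for all libraries in 1 table. The submitters' processing notes name bcl2fastq, STAR 2.6.1c, featureCounts 1.6.4 and the build mm10. The study's methods describe stranded mRNA libraries, and the labels name another kit than the methods. The annotation release and the strand setting of the counts are not given in the sources used here. Reads of overlapping or near-identical genes are therefore uncertain. Libraries were matched by their descriptions. The Veh replicate numbers follow the sample titles and differ from the numbers in the deposited column names.

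Counts were tested with edgeR 4.0.16 (R 4.3.3) after filterByExpr and TMM scaling, with the robust quasi-likelihood F test and Benjamini-Hochberg adjustment over all genes at 0.05. The SE was taken from the F statistic. DESeq2 1.42.0, which the study's methods name, and limma 3.58.1 (voom) were alternatives. Coordinates and IREs came from GENCODE M21, in which 99.7% of identifiers were found. Near-identical copies (95% over 100 bases, BLAST 2.17.0+) and overlaps were computed for the 10 genes only.

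The iron genes and all lists were chosen with earlier results of these data known. The text names the 10 genes, the highest and lowest called gene of each iron and heme list, called genes of these lists of at least 1 on the log2 scale without overlap, ferritin copies with 10 or more counts, and the IRE lists, except for 1 gene that is not reported here and was left out of its list. Hmox2, Fbxl5, Hamp, Ftmt, Blvra and Bach1 were named after their values were seen. Cell type markers were outside the rule. Common variation between libraries of a group was 2.61%, and PCR copies were not told apart.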

Additional observations from a re-analysis of the deposited data

How the results depend on the processing

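The 10 genes were recomputed with 9 alternatives on all libraries (DESeq2 size factors, library size only, upper-quartile factors, no filter, a stricter filter, no robust estimation, a replicate block, DESeq2, limma-voom), and Ftl1 also with its copies, which was chosen after seeing the data. Of 91 values, 87 had the direction and the call of the report. With library size only, Aco1 lost its call (-0.06), Slc11a2 was at 0.022 and Slc40a1 at 0.08, and with upper-quartile factors Slc40a1 was at 0.01. Leaving out 1 library gave 37 of 40 unchanged values. Without Veh replicate 1 Aco1 lost its call, and Slc40a1 ranged from -0.028 to 0.011. These fits assume that the lone library varies like the other group. Tfrc ranged from 0.62 to 0.77, Fth1 from -0.81 to -0.71 and Hmox1 from -1.88 to -1.75 over all of these. The number of iron genes called higher was 3 throughout, and 5 were lower except 4 with library size only and without Veh replicate 1. The same-numbered libraries share only a number (correlation of their deviations 0.0293 over 11300 genes), and with the replicate block the counts were 3 and 5 iron genes and 5772 and 5836 of all genes. Of 388 values of 30 pathway and ferritin genes named, 371 kept direction and call, 12 lost the call (Heph, Prom2, Abcb6, Fthl17f and Blvra), 3 gained it (Hmox2, Fbxl5) and 2 turned their sign. These were Alas2, which ranged from -0.23 to 0.47 with 1 library left out, and Fbxl5, from -0.025 to 0.04. List medians of storage, export, heme synthesis and both iron-sulfur lists changed sign under at least 1 alternative, and the other 8 of 13 did not. Of 338 counts in lists, 322 stayed within 1.5 times. The cause of these changes was not tested. Alas2 and Prom2 had at most 30 and 22 counts in a library.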

Other observations

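Heme and iron-sulfur cluster synthesis use the iron that uptake brings in, and their genes moved in both directions. Over all genes tested 27.9% were higher and 28.4% lower, and no list here was tested as a set. Of 13 heme synthesis genes, 5 were higher, 4 lower and 4 not called, with a median log2 fold change of 0.10. DESeq2 called 3 higher and 1 lower, and 2 were lower with library size only and without NRRA replicate 1 or NRRA replicate 2. Cpox, an enzyme of the mitochondrial steps, rose from 23.7 and 24.0 CPM in Veh to 36.8 and 36.6 CPM in NRRA (log2 fold change 0.62, edgeR adjusted p = 4.86e-09). Abcb6, a porphyrin transporter, was the lowest called gene (-0.48, edgeR adjusted p = 0.0108), and its call was lost with DESeq2 (adjusted p = 0.0768) and without NRRA replicate 2. Of 18 genes of mitochondrial iron and iron-sulfur clusters, 6 were higher, 3 lower and 9 not called (median -0.02). Hspa9, the mitochondrial chaperone of cluster transfer, fell from 456.6 and 468.4 CPM to 305.7 and 297.6 CPM (log2 fold change -0.62, edgeR adjusted p = 9.2e-17). Iba57, a late assembly factor, rose from 10.5 and 9.54 CPM to 15.0 CPM in both NRRA libraries (log2 fold change 0.59, edgeR adjusted p = 1.52e-05). Of 11 cytosolic iron-sulfur genes, 3 were higher and 5 lower, 3 with library size only (median -0.09), from -0.52 for Nubp2 to 0.44 for Bola2.

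Genes tied to ferroptosis, a form of cell death driven by iron and lipid peroxides, also split, with 3 of 8 higher (5 with library size only) and 2 lower (median 0.05). The cystine transporter subunits fell together. Slc3a2, the partner of Slc7a11, went from 245.3 and 252.7 CPM in Veh to 115.9 and 120.0 CPM in NRRA (log2 fold change -1.08, edgeR adjusted p = 4.33e-20), beside the fall of Slc7a11 given above. Acsl4, which activates polyunsaturated fatty acids for membrane lipids, rose from 44.9 and 47 CPM to 82.0 and 75.6 CPM (log2 fold change 0.78, edgeR adjusted p = 6.4e-13).

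The X-linked Fthl17 genes are ferritin heavy chain relatives expressed in germ cells. Fthl17b rose from 64 counts in both Veh libraries to 124 and 107 in NRRA (log2 fold change 0.71, edgeR adjusted p = 0.00308), and Fthl17f from 159 and 215 to 287 and 255 (log2 fold change 0.40, edgeR adjusted p = 0.0111). The Fthl17f call was lost with DESeq2 (adjusted p = 0.0732) and without Veh replicate 1. Of 9 annotated ferritin copies tested, 2 were called higher and 7 were not called. Outside that list, Gm10252 had a log2 fold change of -0.32 (edgeR adjusted p = 4.34e-12). It lies opposite to part of Ftl1 and held a nearly fixed share of the Ftl1 count. Its value may therefore not be separate from that of Ftl1. Gm15590 fell (-0.60, edgeR adjusted p = 0.0265). The copies that were not called (Fthl17c, Fthl17d, Fthl17e, Fthl17-ps1, Ftl1-ps1, Ftl1-ps2 and Ftl2-ps) had between 9 and 178 counts in a library, and the Ftl1 copies Gm12164, Gm15590 and Gm47428 between 2 and 80. The near-identical members of this family may share reads, so that single values are uncertain.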
